A study of Mus musculus with 6 samples.

Results

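Siglecs, signal regulatory receptors and related paired receptors were examined in tumor-associated macrophages (TAMs). The 9 genes were Siglec1, Siglece, Siglecf, Siglecg, Cd33, Sirpa, Sirpb1a, Pilra and Pirb, chosen by name and found among the 39179 genes of the deposited count matrix. Of these, 8 were found by their symbol and Siglecf by its gene identifier, because the matrix lists it under the symbol Siglec5. The TAMs came from subcutaneous tumors of a melanoma cell line, a mouse line driven by mutant Braf, grown in C57BL/6 mice that were 8 weeks old. The Ptgs-competent group (3 libraries, labelled WT) came from mice injected with wildtype tumor cells. The Ptgs-deficient group (3 libraries, labelled KO) came from mice injected with tumor cells in which Ptgs1 and Ptgs2, the genes of cyclooxygenase-1 and cyclooxygenase-2, had been edited. These enzymes make the precursor of prostaglandin E2. The edit was in the tumor cells alone, and the macrophages of both groups were those of unedited hosts. Each library was made from pooled tumors, so p-values measure the spread between pools. Cells carrying CD45, CD11b and F4/80 were sorted, with those bright for Ly6C, and NK cells and neutrophils, gated out, and 3′ ends of their transcripts were sequenced. The comparison asks how the receptors differed between TAMs of Ptgs-deficient and Ptgs-competent tumors.

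Paired receptors are families of surface proteins in which closely related members carry inhibitory or activating signals. Siglecs are lectins that bind sialic acid, the sugar that caps many cell surface glycans. Most of the Cd33-related Siglecs, as well as Sirpa, Pilra and Pirb, have tyrosine motifs in their cytoplasmic tails that recruit the phosphatases SHP-1 and SHP-2, encoded by Ptpn6 and Ptpn11. Siglec1 (CD169, sialoadhesin) lacks such motifs, acts in adhesion and capture of sialylated particles, and is known as an interferon-inducible gene of some macrophages. Sirpb1a is an activating relative of Sirpa that signals through the adaptor DAP12, encoded by Tyrobp.

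The genes lie in few places of the mouse genome (GRCm38, positions from GENCODE). Siglecf (chr7:43351341-43359531), Siglecg (chr7:43408204-43418358), Cd33 (chr7:43524216-43544428) and Siglece (chr7:43651070-43660161) form a cluster, and Pirb lies elsewhere on that chromosome (chr7:3711409-3720391). Sirpa (chr2:129592835-129632228) and Siglec1 (chr2:131069220-131086765) are near each other on chromosome 2. Sirpb1a (chr3:15371653-15426520) and Pilra (chr5:137821952-137836281) lie apart from the other receptors of the set, each beside relatives (Sirpb1b and Sirpb1c, Pilrb1 and Pilrb2).

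Promoter windows, the 250 bases before to 50 after a start site in RefSeq (GRCm38.p6), were found for 7 of the 9 genes, all but Siglec1 and Sirpa. Of the 21 pairs that these 7 genes form, only Cd33 and Siglecf shared a run of 12 or more bases. Their longest shared run had 16 bases and lay before both start sites, and 2 further runs of 12 bases followed it. The stretches around it are shown as the longest run that any pair of these windows shared, and its relation to the counts was not tested. Capitals mark the shared run. Cd33 is given on the minus strand (chr7:43533283-43533358) and Siglecf on the plus strand (chr7:43351284-43351340).
Cd33: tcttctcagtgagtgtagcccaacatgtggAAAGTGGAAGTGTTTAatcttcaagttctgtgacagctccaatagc
Siglecf: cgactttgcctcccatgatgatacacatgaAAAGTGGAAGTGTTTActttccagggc

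A core of the interferon-stimulated response element, written GAAA, any 2 bases and GAAA again, was searched on both strands of each window without reference to other motifs. It was present in the windows of Sirpb1a and Pilra, 2 of the 7 genes with a window, and in 3.44% of all 32851 windows of 300 bases. Capitals mark the match, which began 227 bases before the start site of Sirpb1a (minus strand, chr3:15426625-15426674) and 178 bases before that of Pilra (minus strand, chr5:137836427-137836476).
Sirpb1a: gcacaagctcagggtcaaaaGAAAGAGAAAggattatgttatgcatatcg
Pilra: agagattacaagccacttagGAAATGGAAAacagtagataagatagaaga
A match is a description of letters, and for both genes the groups overlapped, as their values show.

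The libraries held 4431184 to 8760679 counts, and a count of 0 allows at most 0.357 to 0.647 CPM (the count relative to library size, scaled by the trimmed mean of M-values, TMM), at 3 counts per library and for counting error only. The macrophage markers Adgre1 (F4/80), Itgam (CD11b), Csf1r and Cd68 were detected in all 6 libraries. Of the 12 macrophage identity genes 9 had a log2 fold change above 0 and 0 were called, and the sort markers Itgam (472 against 1052 CPM, unadjusted p = 0.0063, adjusted p = 0.261) and Adgre1 (214 against 460 CPM, unadjusted p = 0.0318, adjusted p = 0.456) were higher in every Ptgs-deficient library. Ptgs-competent replicate 3 stood apart. Its 12 macrophage identity genes summed to 4418 CPM against 11485 to 15505 CPM in the other 5 libraries, and its fibroblast and endothelial genes summed to 950 CPM against 42.7 to 352 CPM. Most of the identity sum was Lyz2, at 2884 CPM there and 6839 to 10228 CPM in the other 5 libraries. All of the 12 identity genes but Mertk (89.9 CPM) and Ptprc (153 CPM) were lowest in that library. Ptgs1 (110 to 465 counts) and Ptgs2 (55 to 465 counts) were read in all 6 libraries, which is no check of an edit made in the tumor cells. Of 8793 genes tested with edgeR's quasi-likelihood test, 0.216% were called, at an adjusted p of at most 0.05 and an absolute log2 fold change of at least 1.5. At an unadjusted p under 0.05 the share was 8.83%. The CPM ranges of both groups were apart, without overlap, for 19.0% of tested genes. The log2 fold change was above 0 for 4455 of the 8793 genes.

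Of the 9 receptors, 6 had enough counts to be tested (Siglec1, Siglecf, Cd33, Sirpa, Pilra and Pirb), and Siglece, Siglecg and Sirpb1a did not. The quasi-likelihood test called 0 of the 6, against 0.216% of all tested genes. In that test 1 of the 6, Siglec1, had an unadjusted p under 0.05, against 8.83% of all tested genes. edgeR's likelihood ratio test, which does not carry the uncertainty of each gene's dispersion, called 1 of the 6, again Siglec1, against 2.74% of all tested genes. All 6 fold changes were above 0 on the log2 scale, where 4455 of all 8793 tested genes were. However, those of Siglecf, Cd33, Sirpa and Pilra changed sign when single libraries were left out. In 1 of the 6 tested genes, Siglec1, the groups did not overlap, against 19.0% of all tested genes.

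**Figure D1:**
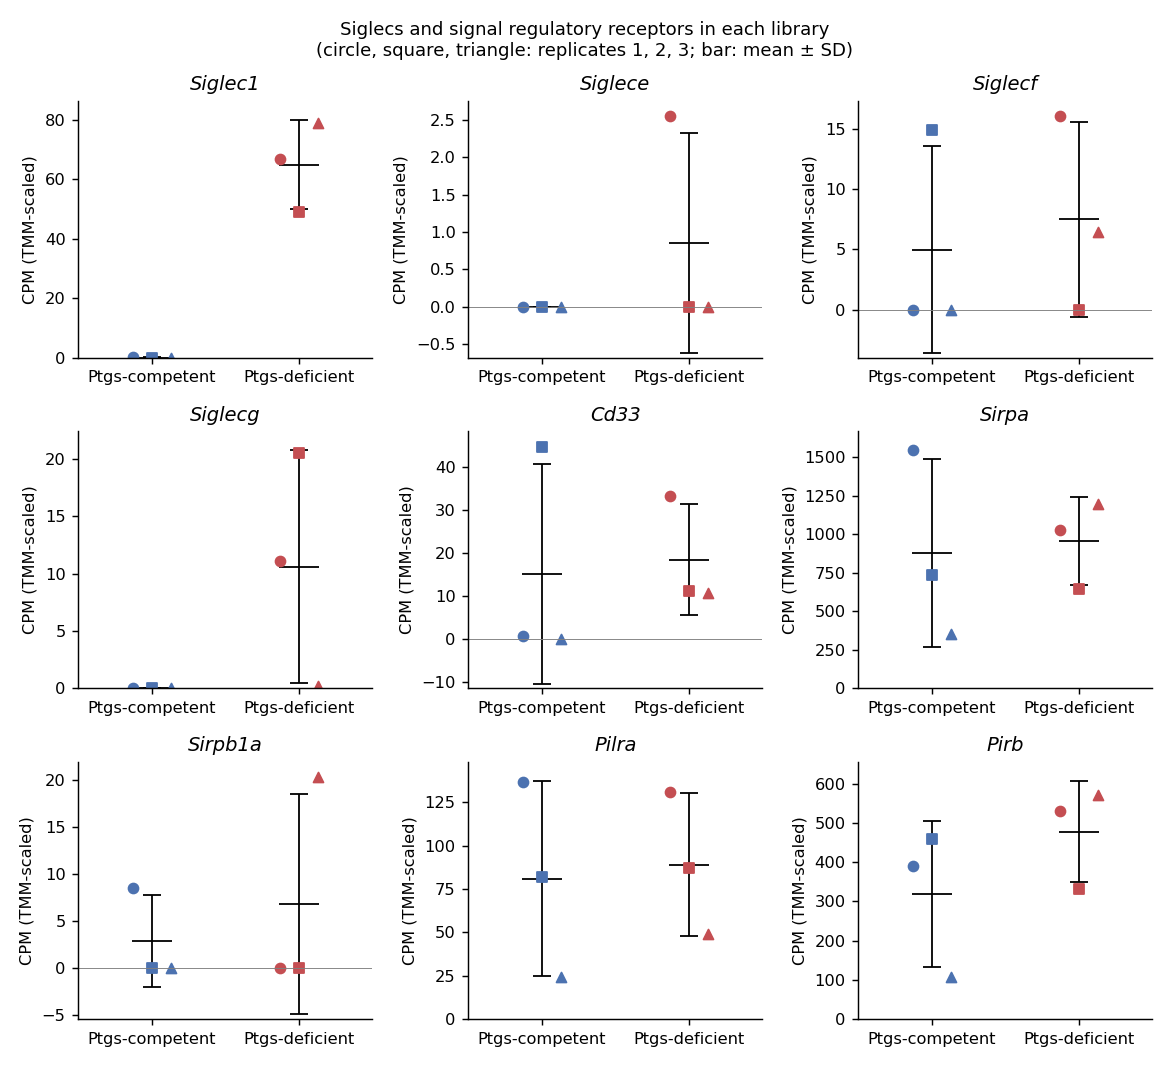
Level of each of the 9 receptors in TMM-scaled CPM (linear axis) in the 3 Ptgs-competent and 3 Ptgs-deficient libraries, with the mean and SD of each group as a bar. Siglec1 lay at 48.9 to 78.8 CPM in the Ptgs-deficient libraries and at no more than 0.159 CPM in the others, while the groups of Sirpa, Pilra, Pirb and Cd33 overlapped.

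Siglec1 (ENSMUSG00000027322) had 1, 0 and 0 counts in Ptgs-competent replicates 1, 2 and 3. In Ptgs-deficient replicates 1, 2 and 3 it had 367, 411 and 381 counts. In CPM these were 0.159, 0 and 0 against 67.0, 48.9 and 78.8, which gave 0.0531 ± 0.0920 in the Ptgs-competent and 64.9 ± 15.1 in the Ptgs-deficient group (SD, n = 3 each). Every Ptgs-deficient library was high and every Ptgs-competent library was at or next to 0. The ratio of the summed counts, per scaled library size, was 1053 with a counting interval of 189 to 41640 (95%, Clopper-Pearson), since it rests on 1 count in the Ptgs-competent libraries. Without Ptgs-competent replicate 1, which held that count, Siglec1 was at least 114-fold higher, against a floor of 3 counts per library.

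The quasi-likelihood test gave Siglec1 a log2 fold change of 9.71 ± 1.71 (SE), an unadjusted p of 0.000197 and a Benjamini-Hochberg adjusted p of 0.0693, which misses the call. The adjusted p was 4.79e-05 in the likelihood ratio test and 1.53e-07 in DESeq2's Wald test, and 0.000308 in the quasi-likelihood test without a filter on low counts. Over the 17 alternatives it ran from 1.53e-07 to 0.425. In an exact two-sided permutation test of its CPM, p was 0.1, the smallest that 3 against 3 libraries can give. Without the low replicate, Ptgs-competent replicate 3, the separation remained, with 1 and 0 counts in the other Ptgs-competent libraries. In its last 400 transcript bases, 8.93% of 50-base words also occur in other genes (69 genes), so some reads may not be unique to it.

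Sums of markers of other cells also differed between the groups. The 8 monocyte genes summed to 965 to 2507 CPM in the Ptgs-competent and to 5150 to 6391 CPM in the Ptgs-deficient libraries. Most of that sum was F13a1, a coagulation factor subunit, with 1961, 1297 and 707 CPM against 3686, 4012 and 3725 CPM. Of all 8793 tested genes, 4455 had a log2 fold change above 0 and 4338 below. Of the 7 monocyte genes tested, 5 were above 0 and 2 below. Vcan, 1 of the 2, had 26.6, 85.2 and 31.0 CPM against 0, 17.1 and 0 CPM, without overlap (adjusted p = 0.935), and Hp had a log2 fold change of -0.38. An unadjusted p under 0.05 was reached by 4 of the 7 tested, all of them higher, against 8.83% of all tested genes. Among the 4 were Plac8, which was called (log2 fold change 3.20 ± 0.42 SE, adjusted p = 0.0230), and Ccr2, the receptor that brings monocytes out of the marrow (1.77 ± 0.43, adjusted p = 0.171). Another was Ly6c2, a gene of the Ly6C marker used to gate out bright cells. It had 49.2, 33.8 and 0.216 CPM against 96.5, 283 and 239 CPM, without overlap. Its log2 fold change was 2.89 ± 1.15 (SE, unadjusted p = 0.0311, adjusted p = 0.454, quasi-likelihood). The sum of 11 fibroblast and endothelial genes was 284 to 950 CPM in the Ptgs-competent and 42.7 to 75.7 CPM in the Ptgs-deficient libraries. Sparc held much of it (180, 126 and 600 CPM against 22.6, 17.6 and 36.8 CPM), 7 of the 11 were tested, all below 0 on the log2 scale, 0 were called, and 3 were at 0 in all 6 libraries. The 12 neutrophil genes summed to 621 to 724 CPM against 452 to 532 CPM, with 2 of the 6 tested above and 4 below 0 on the log2 scale (S100a8 at -1.07, unadjusted p = 0.0366, and Retnlg at 2.11, unadjusted p = 0.0091, edgeR), and the 9 eosinophil genes to 2.59 to 35.2 CPM against 180 to 430 CPM, most of it Ear2. Scaled to the macrophage identity genes, most of whose counts are those of Lyz2, Siglec1 had 0.0123, 0 and 0 counts per 1000 identity counts in Ptgs-competent and 5.39, 4.26 and 5.08 in Ptgs-deficient replicates 1, 2 and 3. The part of these cells in the Siglec1 result was not tested. In bulk RNA, fewer cells of a type and less RNA per cell cannot be told apart.

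By the root mean square difference of centred log2 CPM profiles over the 6 libraries, the genes most like Siglec1 were Prr5l (0.208), Cd209g (0.241) and Ccl24 (0.298), where the profile of Siglec1 itself had an SD of 3.70. Prr5l, a partner of the mTORC2 kinase complex, was at 0 in all Ptgs-competent replicates and had 305, 328 and 281 counts in those of the Ptgs-deficient group. Cd209g, a lectin of the DC-SIGN family, had 1, 0 and 0 counts against 400, 656 and 396. Ccl24 (eotaxin-2), a chemokine for eosinophils, had 0 counts against 224, 343 and 400. With a smaller prior count of 0.5, Cd38 took the place of Ccl24 among the 3 nearest genes. Among the other 5 tested receptors the smallest difference from Siglec1 was 3.26, to Cd33, and the untested ones were not compared.

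The Cd33-related Siglecs were read sporadically. Siglece (ENSMUSG00000030474), a broadly inhibitory Siglec of myeloid cells, had 14 counts in Ptgs-deficient replicate 1 and 0 counts in the other 5 libraries, and was not tested. Siglecf (ENSMUSG00000039013), best known from eosinophils and alveolar macrophages, had 0, 91 and 0 counts in the Ptgs-competent and 88, 0 and 31 in the Ptgs-deficient replicates 1, 2 and 3. It was present in 1 of 3 and 2 of 3 libraries, and the groups overlapped. Its log2 fold change was 0.59 ± 2.95 (SE, adjusted p = 0.9995, quasi-likelihood), an interval of -5.98 to 7.15. Of 9 eosinophil genes, Epx, Prg2, Prg3, Ear1 and Il5ra were at 0 in all 6 libraries, and the list summed to 2.59 to 35.2 CPM in the Ptgs-competent and 180 to 430 CPM in the Ptgs-deficient group. Ccr3, the eotaxin receptor, had 81, 0 and 0 counts against 184, 23 and 1, and like Siglecf had its highest CPM in Ptgs-deficient replicate 1. Alox15 had 0 counts in each Ptgs-competent replicate against 23, 50 and 11 (unadjusted p = 0.0215, adjusted p = 0.376, quasi-likelihood), and Ear6 had 12 counts in Ptgs-deficient replicate 1 alone. Ear2 was read in all 6, at 22.3, 9.68 and 2.59 CPM against 140, 298 and 428 CPM, and Siglecf was at 0 in Ptgs-deficient replicate 2, where Ear2 was at 298 CPM. The part of eosinophils in the Siglecf values was not tested.

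Cd33 (ENSMUSG00000004609), a Siglec of myeloid cells, had 5, 273 and 0 counts in the Ptgs-competent and 183, 94 and 52 in the Ptgs-deficient replicates. It was thus at or near 0 in 2 Ptgs-competent libraries, highest in the remaining one and present in all 3 Ptgs-deficient libraries. The group means were 15.2 ± 25.6 and 18.4 ± 12.9 CPM (SD, n = 3 each) and the log2 fold change was 0.28 ± 2.19 (SE, adjusted p = 0.9995, quasi-likelihood). The 95% interval ran from -4.60 to 5.15, and without Ptgs-competent replicate 1, Ptgs-competent replicate 3 or Ptgs-deficient replicate 1 the sign turned (-0.28, -0.23 and -0.41). Cd33 and Siglecf were both highest in Ptgs-competent replicate 2 and Ptgs-deficient replicate 1, and both were at 0 in Ptgs-competent replicate 3. Their profiles differed by 1.63 (root mean square, log2), the smallest difference of either to another of the 6 tested receptors, and they parted in Ptgs-deficient replicate 2, where Cd33 had 94 counts and Siglecf had 0. Each was closer to its own nearest gene elsewhere in the genome, at 0.434 for Cd33 and 0.465 for Siglecf.

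Siglecg (ENSMUSG00000030468), an inhibitory Siglec known from B1 cells and as a receptor for Cd24a, had 0 counts in every Ptgs-competent library and 61, 172 and 1 counts in Ptgs-deficient replicates 1, 2 and 3. The groups did not overlap, but the lowest Ptgs-deficient library held a single count. The mean of 10.6 ± 10.1 CPM (SD, n = 3) was at least 19.7-fold higher than the floor of 3 counts per library, and at least 10.5-fold without Ptgs-deficient replicate 2. It did not pass the filter on low counts. Without the filter the quasi-likelihood test gave an unadjusted p of 0.0708 and an adjusted p of 0.501, and the exact permutation p was 0.1, the smallest possible. Of 8 B cell genes, 6 were at 0 in all 6 libraries, among them Cd79a, Ms4a1 and Pax5. Cd79b had 46, 163 and 0 counts against 0, 124 and 79, and was highest in Ptgs-competent replicate 2, where Siglecg was at 0. Ighm, the heavy chain of immunoglobulin M, was at 0 in each Ptgs-competent replicate, while Ptgs-deficient replicates 1, 2 and 3 held 82, 137 and 433 counts, so that both genes were read in the Ptgs-deficient group alone, and within it Ighm was highest where Siglecg was lowest. The part of such cells in the Siglecg values was not tested. Cd24a, its partner, was read at 3.67, 28.1 and 0 CPM against 0, 49.7 and 0.414 CPM, with overlapping groups.

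The inhibitory receptors Sirpa, Pirb and Pilra were read in all 6 libraries. Sirpa (ENSMUSG00000037902), the receptor for Cd47 that restrains phagocytosis, had 9692, 4501 and 1641 counts in the Ptgs-competent and 5650, 5412 and 5797 in the Ptgs-deficient replicates 1, 2 and 3. In CPM these were 1545, 739 and 354 against 1031, 644 and 1200. The Ptgs-competent libraries held both the highest and the lowest value, so the Ptgs-deficient values lay within their range. The log2 fold change was 0.12 ± 0.49 (SE, adjusted p = 0.9995, quasi-likelihood). Its 95% interval of -0.97 to 1.22 holds differences of either sign. Without Ptgs-competent replicate 3 the log2 fold change was -0.21.

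Pirb (ENSMUSG00000058818), the paired immunoglobulin-like receptor that binds MHC class I, had 2447, 2798 and 497 counts in the Ptgs-competent and 2916, 2780 and 2768 in the Ptgs-deficient replicates. In CPM these were 390, 459 and 107 against 532, 331 and 573. Of the Ptgs-deficient libraries, 2 were above all Ptgs-competent ones and the other was below 2 of them. The log2 fold change was 0.59 ± 0.50 (SE, unadjusted p = 0.270, adjusted p = 0.9995, quasi-likelihood), with a 95% interval of -0.53 to 1.70. It was above 0 under all 17 alternatives, from 0.22 to 0.94, and passed the test in none of them.

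Pilra (ENSMUSG00000046245), an inhibitory receptor for sialylated proteins, had 859, 499 and 112 counts against 719, 731 and 236. In CPM these were 137, 81.9 and 24.1 against 131, 87.0 and 48.8. The groups covered nearly the same range, and the replicate numbered 3 was lowest in each, although the numbers are not stated to pair libraries. The log2 fold change was 0.14 ± 0.70 (SE, adjusted p = 0.9995, quasi-likelihood), with a 95% interval of -1.42 to 1.69. In its last 400 transcript bases, 10.6% of 50-base words are shared with Pilrb1 and Pilrb2, its activating relatives.

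Ptgs-competent replicate 3 was lowest of all 6 libraries for Sirpa, Pirb and Pilra, as it was for the macrophage identity sum. Most of the identity counts are those of Lyz2, and the genes also include Itgam and Adgre1. Per 1000 identity counts, Sirpa had 120, 61.5 and 80.1 in the Ptgs-competent and 83.0, 56.1 and 77.4 in the Ptgs-deficient replicates. On the same scale Pirb had 30.2, 38.2 and 24.2 against 42.8, 28.8 and 36.9, and Pilra had 10.6, 6.82 and 5.46 against 10.6, 7.58 and 3.15. In proportion to its mean, the spread of the Ptgs-competent group was narrower on this scale for all 3, and the groups overlapped for each.

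**Figure D2:**
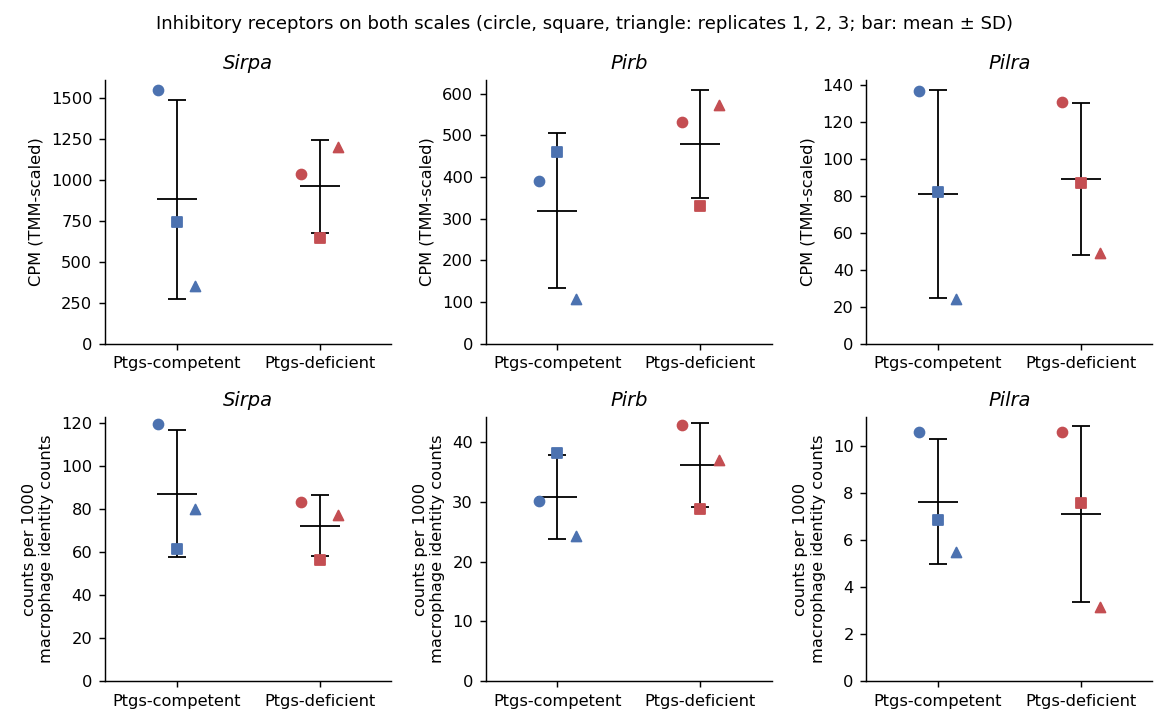
Sirpa, Pirb and Pilra in TMM-scaled CPM (upper row) and per 1000 counts of 12 macrophage identity genes, mostly Lyz2 (lower row), in each library, with the mean and SD of each group. All axes are linear and start at 0. Ptgs-competent replicate 3 (triangle) was lowest in CPM for each gene, at 354, 107 and 24.1, and on the second scale lay at 80.1, 24.2 and 5.46.

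Sirpb1a (ENSMUSG00000095788) had 53 counts in Ptgs-competent replicate 1, 98 in Ptgs-deficient replicate 3 and 0 in the other 4 libraries, and was not tested. Of the 50-base words in its last 400 transcript bases, 64.2% also occur in Sirpb1b and Sirpb1c, so its counts are uncertain. Sirpb1b had 41.4, 0 and 0 CPM against 16.8, 29.2 and 25.9 CPM, and Sirpb1c had 84.6, 65.8 and 0 CPM against 7.66, 29.9 and 30.8 CPM. The groups of both relatives overlapped, and neither passed the test (adjusted p = 0.9995 each, quasi-likelihood).

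Among 30 other paired receptors of the immunoglobulin type, 24 were matched in the matrix and 15 were tested. The quasi-likelihood test called 0 of the 15, against 0.216% of all tested genes. Of the 15, 9 had a log2 fold change above 0 and 6 below, and 1 had an unadjusted p under 0.05, against the background of 8.83%. Their median log2 fold change was 0.32, where the median of all tested genes was 0.018, and 4455 of those 8793 genes were above 0. The 1 was Pecam1 (CD31), an adhesion receptor with inhibitory motifs that endothelium also carries, which was lower in every Ptgs-deficient library. It had 88.0, 197 and 92.9 CPM against 65.1, 15.4 and 35.8 CPM, a log2 fold change of -1.70 ± 0.68 (SE, unadjusted p = 0.0317, adjusted p = 0.456, quasi-likelihood). Of the endothelial genes in the list, Cdh5 and Tek were at 0 in all 6 libraries and Kdr had 95, 0 and 0 counts against 0, 58 and 18. The part of endothelial cells in the Pecam1 values was not tested.

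Of the tested Cd300 receptors, which bind lipids, Cd300lb, Cd300a, Cd300c2 and Cd300ld had the next smallest p values, followed by Cd200r1, the inhibitory receptor for CD200. Cd300lf lay at the other end, with 154, 127 and 68.8 CPM against 105, 160 and 83.0 CPM and a log2 fold change of -0.0079 ± 0.49 (SE, adjusted p = 0.9995, quasi-likelihood). Cd300lb, an activating member, had 19.8, 6.89 and 24.4 CPM against 112, 35.2 and 51.1 CPM, without overlap. Its log2 fold change was 1.96 ± 0.97 (SE, adjusted p = 0.682, quasi-likelihood). The inhibitory Cd300a had 18.6, 103 and 12.3 CPM against 51.3, 213 and 179 CPM. The log2 fold changes of Cd300a, Cd300c2 and Cd300ld were 1.73, 0.65 and 0.81, and their adjusted p were 0.694, 0.869 and 0.920. Cd200r1 had 23.0, 0 and 0 CPM against 36.5, 53.8 and 80.9 CPM, without overlap (adjusted p = 0.934). Siglech, a marker of plasmacytoid dendritic cells, had 121 counts in Ptgs-deficient replicate 3 and 0 elsewhere, and Siglec15 was at 0 in all 6 libraries.

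**Figure D3:**
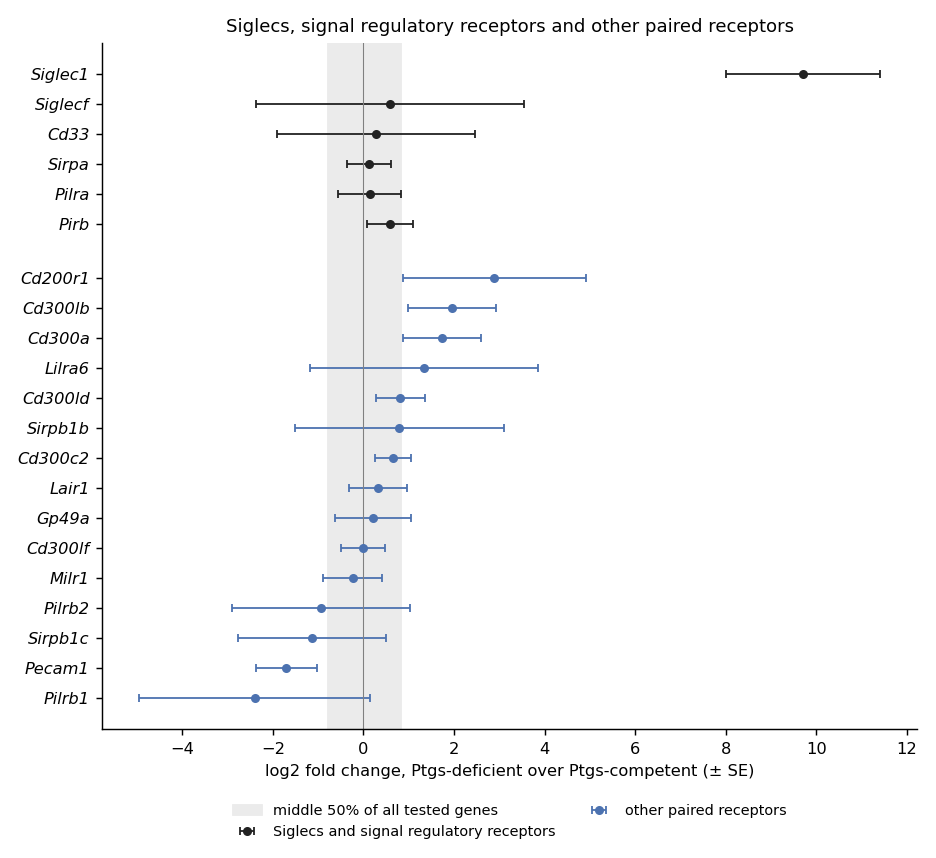
Log2 fold change of Ptgs-deficient over Ptgs-competent TAMs with its SE (quasi-likelihood fit) for the 6 tested Siglecs and signal regulatory receptors and the 15 other tested paired receptors. The grey band holds the middle of all tested genes between their quartiles (-0.78 to 0.83), and Siglec1, at 9.71, lies far to the right of the other receptors.

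Of the 21 signaling genes next to these receptors, all were tested and 0 were called, against 0.216% of all tested genes. An unadjusted p under 0.05 was reached by 1 of the 21, against 8.83% of all tested genes. On the log2 scale 9 were above and 12 below 0, and the median was -0.16. Among all 8793 tested genes the median was 0.018 and 4455 were above 0. Tyrobp (DAP12), the adaptor of the activating members, had 1313, 996 and 918 CPM against 950, 1104 and 1411 CPM, a log2 fold change of 0.10 ± 0.30 (SE, adjusted p = 0.9995, quasi-likelihood). The phosphatase gene Ptpn6 had 199, 238 and 16.2 CPM against 145, 91.6 and 184 CPM, with Ptgs-competent replicate 3 lowest. Ptpn11 had 85.6, 62.9 and 128 CPM against 85.9, 38.7 and 43.5 CPM, and here that replicate was highest. The groups overlapped for each of these 3 genes. The 1 gene with an unadjusted p under 0.05 was Csk, the kinase that holds Src kinases inactive, with 114, 80.9 and 46.6 CPM against 154, 179 and 181 CPM. Its log2 fold change was 1.09 ± 0.46 (SE, adjusted p = 0.511, quasi-likelihood). Dok3, Inpp5d (SHIP-1) and Vav1 had log2 fold changes of -1.31, -0.90 and -0.68, with adjusted p of 0.922, 0.932 and 0.949.

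Of 12 ligands, 9 were tested and 0 were called, against 0.216% of all tested genes. An unadjusted p under 0.05 was reached by 4 of the 9, against 8.83% of all tested genes. The median log2 fold change was 0.73, with 7 above 0 and 2 below. Among all 8793 tested genes the median was 0.018 and 4455 were above 0. The MHC class I genes, whose products bind Pirb, did not overlap between the groups. H2-K1 had 947, 926 and 808 CPM against 2430, 3107 and 3165 CPM. Its log2 fold change was 1.70 ± 0.29 (SE, adjusted p = 0.0600, quasi-likelihood). H2-D1 had 1570, 1507 and 1327 CPM against 3392, 3578 and 5624 CPM (log2 fold change 1.52 ± 0.32, adjusted p = 0.107). B2m, the shared light chain, had 1318, 1935 and 790 CPM against 3475, 5843 and 3927 CPM (1.71 ± 0.40, adjusted p = 0.148). These levels are those of the sorted macrophages and say nothing of the ligands on tumor cells.

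Both H2-K1 and B2m passed the call in the likelihood ratio test, in DESeq2's Wald test, in limma's voom test and without the filter on low counts, and H2-D1 passed in these except for DESeq2's, where its adjusted p was 2.55e-06 but its log2 fold change of 1.47 was just under the 1.5 required. H2-K1 also passed in the robust quasi-likelihood fit (adjusted p = 0.0402) and with scaling by library totals (0.0391). Cd47, the ligand of Sirpa, had 175, 158 and 163 CPM against 118, 287 and 418 CPM. The Ptgs-deficient group held both the lowest and the highest value, and the log2 fold change was 0.73 ± 0.46 (SE, adjusted p = 0.882). Thbs1, which binds Cd47, had 144, 190 and 153 CPM against 120, 75.1 and 50.7 CPM, without overlap (-0.99 ± 0.47, adjusted p = 0.635). Angptl2, a secreted ligand of Pirb, had 21.2, 0.656 and 231 CPM against 0, 2.50 and 0.828 CPM (-6.19 ± 2.07, adjusted p = 0.346), and was highest in Ptgs-competent replicate 3, the library with the highest fibroblast and endothelial sum. The groups overlapped. It was called in DESeq2's test (adjusted p = 0.00851) and without the filter on low counts (0.00128), and its log2 fold change ran from -7.62 to -3.24 over the alternatives, the latter without Ptgs-competent replicate 3, where the adjusted p was 0.921.

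Of 30 genes that make, transfer or remove sialic acid, 16 were tested and 0 were called, against 0.216% of all tested genes. Of these 16, 13 had a log2 fold change above 0 and 3 below, with a median of 0.48. Among all 8793 tested genes the median was 0.018 and 4455 were above 0. Of the 16, 1 had an unadjusted p under 0.05, against 8.83% of all tested genes. That gene was St6gal1, which adds sialic acid in the α2,6 linkage. It had 23.6, 1.64 and 14.4 CPM against 73.9, 103 and 127 CPM, and every Ptgs-deficient library was above every Ptgs-competent one. Its log2 fold change was 2.94 ± 0.97 (SE, unadjusted p = 0.0125, adjusted p = 0.331, quasi-likelihood), and it stayed above 0 under the 17 alternatives (2.15 to 3.67). Cmas, which activates sialic acid for transfer, had 49.7, 48.9 and 20.9 CPM against 79.4, 109 and 81.7 CPM, also without overlap (1.18 ± 0.65, adjusted p = 0.781).

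Of the genes that remove or break down sialic acid, the sialidase gene Neu1 had 386, 331 and 163 CPM against 232, 229 and 152 CPM (log2 fold change -0.52 ± 0.41, adjusted p = 0.985), and Ctsa, which protects the sialidase in lysosomes, had 562, 292 and 354 CPM against 572, 670 and 483 CPM (0.52 ± 0.35, adjusted p = 0.920). St3gal3, which adds sialic acid in the α2,3 linkage, had 22.2, 35.9 and 4.10 CPM against 13.9, 0.119 and 4.55 CPM (-1.74 ± 2.11, adjusted p = 0.9995). The groups of these 3 genes overlapped. Npl, the lyase that cleaves free sialic acid, had 365 counts in Ptgs-deficient replicate 2, 13 in Ptgs-deficient replicate 3 and 0 in the other 4 libraries, and was not tested.

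**Figure D4:**
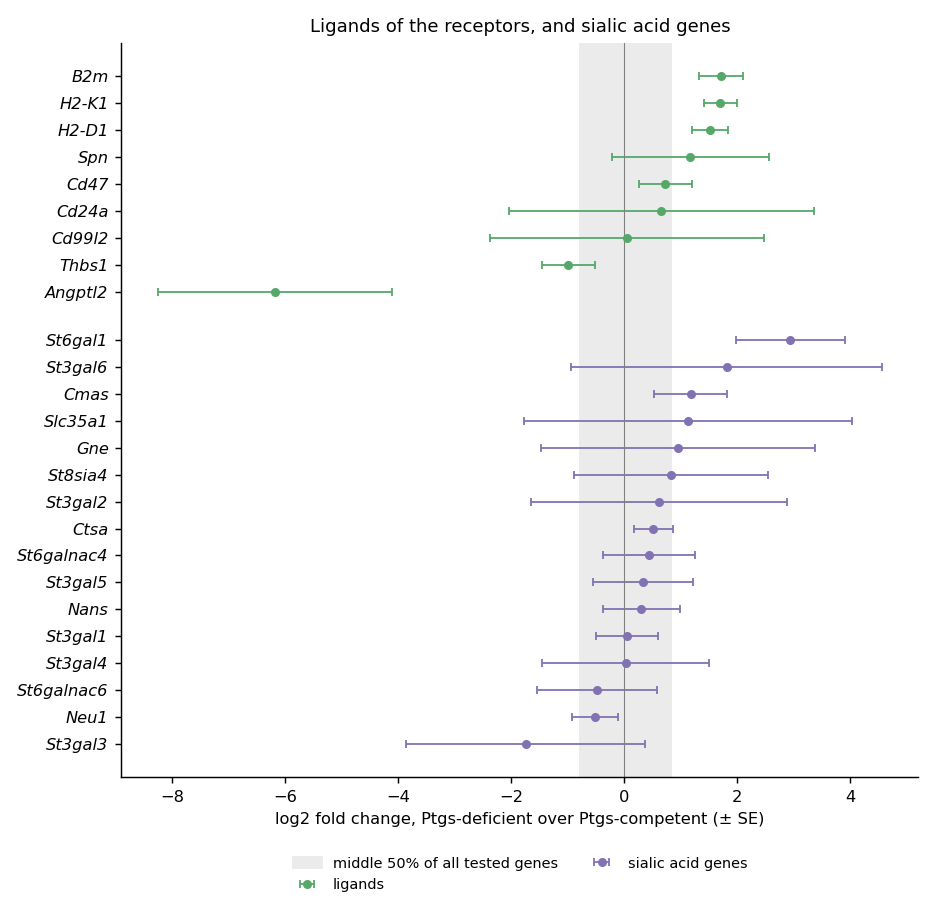
Log2 fold change of Ptgs-deficient over Ptgs-competent TAMs with its SE (quasi-likelihood fit) for 9 tested ligands and 16 tested sialic acid genes, with the quartile range of all tested genes in grey. B2m, H2-K1 and H2-D1, at 1.71, 1.70 and 1.52, and St6gal1, at 2.94, lie to the right of the band, and Angptl2, at -6.19, to its left.

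The tested receptors other than Siglec1 had other nearest genes. For Sirpa these were Isoc2a (0.192), Srek1ip1 and Abhd11, for Pilra Gsk3a (0.202), Ocel1 and Apobr, and for Pirb Galnt10 (0.142), Cnpy2 and Syngr2. For Siglecf they were Acta2 (0.465), Dcun1d3 and Zdhhc1, and for Cd33 Fam65a (0.434), Zfp672 and Rab5b. The values are root mean square differences over the same 6 libraries, on the log2 scale. Sirpa, Pirb and Pilra, whose own profiles had SDs of 0.690, 0.812 and 0.862, lay at differences from each other of 0.462 (Sirpa and Pirb), 0.595 (Sirpa and Pilra) and 0.639 (Pilra and Pirb). All 3 were lowest in Ptgs-competent replicate 3, a library they share.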

How the data were processed

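Libraries of 3′ ends (QuantSeq FWD, 800 pg of RNA) were sequenced for 3 Ptgs-competent and 3 Ptgs-deficient pools of TAMs. The authors trimmed the reads (BBDUK, fqtrim, cutadapt), aligned them with STAR to GRCm38 and deposited raw read counts per gene (featureCounts, Ensembl annotation). The strand setting and the treatment of multi-mapped reads are not given in the sources used here. From these counts, genes were filtered with filterByExpr (minimum count 10) and scaled by TMM, and the groups were compared with edgeR 4.0.16 (R 4.3.3) by the quasi-likelihood test, two-sided, with Benjamini-Hochberg adjustment over all 8793 genes tested. Levels are CPM over the tested genes. Alternatives used DESeq2 1.42.0, limma 3.58.1, other scalings and filters, and each library left out. Libraries held 4431184 to 8760679 counts.

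The receptors and the lists were chosen with earlier results of these data known. Named were all 9 receptors, the 5 genes of smallest p per list, fixed partners (Cd47, Cd24a, H2-K1, B2m, Tyrobp, Ptpn6, Ptpn11) and the 3 genes most like each tested receptor. Relatives (Sirpb1b, Sirpb1c), Cd200r1, Cd300lf, Npl, Siglech, Siglec15 and Cd38 were named after their values were seen. Shared 50-base words came from GENCODE transcripts of the same build. The shared promoter runs, and their minimum of 12 bases, were likewise chosen after the sequences were seen. Protein sequences were not analysed here, and some genes that the rule names are not reported here. The scripts were tested on simulated data.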

Additional observations from a re-analysis of the deposited data

How the results depend on the processing

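Over the tests, scalings and filters tried, Siglec1 was higher in the Ptgs-deficient group in all 17 alternatives, and the number of receptors called was 0 except for 1, Siglec1, in the likelihood ratio test, in DESeq2's Wald test and without the filter on low counts. It was 0 with any single library left out. With single libraries left out, 7 to 8 receptors were tested, of which 1 to 2 had an unadjusted p under 0.05 (6.72% to 12.9% of all tested genes) and 1 to 3 had no overlap (24.4% to 33.5% of all tested genes). Without the filter 2 of 9 had no overlap (13.6% of all tested genes). Without Ptgs-deficient replicate 3 the 2 at an unadjusted p under 0.05 were Siglec1 and Siglecg.

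The number of all genes called was 19, and 241 in the likelihood ratio test, 328 with DESeq2, 123 with limma's voom, 252 without the filter, 77 with the replicate number as a block and 0 to 25 with single libraries left out. The replicate numbers are not stated to pair the libraries. Correlations of deviations between libraries of the same number were -0.0488, -0.0224 and -0.0218, which does not decide whether they are paired. The replicate block called 0 receptors.

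Scaling by the macrophage identity counts, added after seeing the data, called 1 gene and moved the median of all genes to -0.642, of the signaling genes to -0.712 and of the sialic acid genes to -0.179. Relative to that shift the sialic acid median stayed above and the signaling median below that of all genes. Voom moved the median of all genes to 0.393. In voom that of the signaling genes turned to 0.0981, above 0 but below the median of all genes. The median of the other paired receptors was 0.811 without the filter and 0.188 to 1.01 with single libraries left out.

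The sign turned under identity scaling for Sirpa (-0.270), Pilra (-0.104), Tyrobp (-0.572), Cd47 (-0.0486) and Ctsa (-0.124), all of which stayed above the median of all genes, as before the shift. It turned in voom for Pilra (-0.0744), Ptpn6 (0.165), Cd24a (-0.0248) and Sirpb1c (0.592), and under the block for Ptpn6 (0.330). With single libraries left out, the log2 fold change ranged across 0 for Sirpa (-0.211 to 0.814), Pilra (-0.250 to 0.750), Cd33 (-0.414 to 5.43), Siglecf (-0.606 to 8.47), Ptpn6 (-0.590 to 0.382), Cd24a (-5.54 to 3.17) and Tyrobp (-0.0616 to 0.276). None of these was called in any setting, and the cause was not tested. By depth, a count of 0 allows up to 0.357 to 0.647 CPM, and both Siglece and Siglecf were at 0 in Ptgs-deficient replicate 2, the deepest library.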
